A study of Homo sapiens with 27 samples.

Results

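Insertions of a short piggyBac transposon were compared with insertions of the wild-type transposon, both mobilised by wild-type piggyBac transposase in HCT116 cells. The comparison rests on 3 libraries labelled with the short transposon and 3 labelled with the wild-type transposon, of 27 libraries in the series. Together they list 27435 sites with the short and 1205209 sites with the wild-type transposon, of 5365773 sites in the whole series. HCT116 is an established human colorectal carcinoma line. The libraries were chosen by their labels. In both groups the cells carried a self-reporting transposon and were grown for 2 weeks in puromycin at 3 µg/ml. The labels give no genotype of the cells, do not say which bases the short transposon lacks, name no batch, and do not say whether replicates came from separate transfections, so that p-values measure the spread between these libraries only. Peak lists hold no expression values, and the identity of the cells could therefore not be checked against marker genes.

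PiggyBac is a cut-and-paste DNA transposon from a moth. Its transposase binds the transposon ends, which differ from each other in length and in their internal repeats, cuts the element out and inserts it at a TTAA tetranucleotide, which is duplicated on insertion. In mammalian cells piggyBac inserts often near transcription start sites and in open chromatin. In a self-reporting transposon an internal promoter drives transcription out of an end into the flanking genome, so that an insertion is read from RNA that joins transposon and genomic sequence. The study's title places this comparison in a question about asymmetric transposon ends.

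A site is the first base of the target tetranucleotide, taken from the edge of a peak at which the transposon junction lies, and its height is the maximum coverage of that peak as deposited. Where both strands had a peak at a position, the taller peak gave the height. The target could be read for sites that fell in 34961 RefSeq promoter windows of GRCh38.p14, each running from 250 bases before to 50 bases after a gene start. The short libraries placed 128, 122 and 144 sites in these windows, and 128 (100%, exact 95% interval 97.2 to 100), 122 (100%, 97.0 to 100) and 140 (97.2%, 93.0 to 99.2) of them began exactly at a TTAA. In the wild-type libraries the shares on a TTAA were 98.2%, 98.0% and 98.2% of 2866, 2473 and 2767 sites. Of all windows, 46.1% held at least 1 TTAA, and the windows held 28600 distinct ones with a base of the window on each side. Counting also TTAA at a window edge, the short transposon was found at 320 targets and the wild-type transposon at 4764. Of the 320, 274 (85.6%) were used by both.

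The promoter targets below were hit in all 3 short libraries, and they are shown because they are the exact bases at which the short libraries met. There were 15 such targets, and 8 are printed, with 20 bases on each side from RefSeq (GRCh38.p14), 5′ to 3′ in the sense of the gene. The 8 do not strictly follow the order of height and do not stand for all 15. A target before COLGALT1, with a summed short height of 29, is left out, and that before EIF5A, at 28, is kept. The capitals mark the TTAA.

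MORC3, chr21:36320055-36320098, plus strand: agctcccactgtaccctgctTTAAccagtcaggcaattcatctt
LRIG2, chr1:113073042-113073085, plus strand: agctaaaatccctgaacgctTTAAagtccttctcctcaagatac
GSN, chr9:121286320-121286363, plus strand: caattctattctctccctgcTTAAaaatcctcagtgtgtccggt
DCAF15, chr19:13952283-13952326, plus strand: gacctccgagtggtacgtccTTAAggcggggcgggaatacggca
RNF43, chr17:58417679-58417722, minus strand: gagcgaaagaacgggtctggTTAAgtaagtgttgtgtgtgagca
PRR14, chr16:30650732-30650775, plus strand: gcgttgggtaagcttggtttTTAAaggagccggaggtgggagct
SF3B1, chr2:197435237-197435280, minus strand: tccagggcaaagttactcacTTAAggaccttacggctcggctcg
EIF5A, chr17:7306869-7306912, plus strand: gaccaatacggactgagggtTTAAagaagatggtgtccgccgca

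The MORC3 target lies 122 bases before the start of a gene for a nuclear body ATPase. Its heights were 44, 23 and 14 in the short libraries and 108, 143 and 79 in the wild-type libraries. The SF3B1 target, 167 bases before the start of a splicing factor gene, had heights of 11, 15 and 7 against 174, 130 and 128. The RNF43 target, 168 bases before the start of the gene for a ubiquitin ligase that removes Wnt receptors, had heights of 7, 13 and 21 against 153, 93 and 123. In every wild-type library these 3 targets were above the median height. The target before PRR14, which tethers heterochromatin to the nuclear lamina, was listed in 2 wild-type libraries (118 and 123) and in the short ones at 10, 17 and 9. The DCAF15 target, in the promoter of a ubiquitin ligase substrate receptor, was listed in 1 wild-type library only (96) and in the short ones at 17, 16 and 11. The EIF5A target, 110 bases before the start of a translation factor gene, was listed at 12, 10 and 6 in the short libraries and in no wild-type library.

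The bases next to the TTAA did not set the groups apart at this depth. The target was preceded by T in 38.9%, 44.6% and 42.0% of the short sites in promoter windows and in 43.0%, 41.1% and 41.2% of the wild-type ones, with 38.5% over all TTAA of the windows. It was followed by A in 38.8% ± 2.55 and 39.6% ± 0.87 of them (SD, n = 3; exact permutation p = 0.7, adjusted p = 0.933). G or C on both sides was found in 21.5% ± 2.83 and 19.3% ± 0.43 (SD, n = 3; exact permutation p = 0.4, adjusted p = 0.933), against 16.0% over all TTAA. With at most 138 short sites per library, differences of a few percentage points could not be seen.

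The short transposon gave far fewer listed sites. The short libraries held 9196, 9027 and 9212 distinct sites, and the wild-type libraries 437446, 346918 and 420845, a ratio of group means of 43.9. The deposited file totals differed as much, with 183125, 179014 and 210694 against 9532926, 8204478 and 9454727, a ratio of 47.5. Per 1000000 of that total the short libraries had 50217, 50426 and 43722 sites and the wild-type libraries 45888, 42284 and 44512. The ranges of this rate overlap, and the groups differed by 0.12 on the log2 scale (exact permutation p = 0.3). Each transposon had its own amplification primers per the labels' protocols, so that the construct, the primers and the depth of the libraries cannot be told apart. The short peaks were also lower. Their median height was 7 in each library against 11, 13 and 12, and their tallest peaks reached 81, 72 and 83 against 404, 388 and 455. Heights of 5, the lowest listed, and 6 made up 45.3% ± 2.43 of short sites and 20.1% ± 1.38 of wild-type sites, whereas heights of 20 to 49 made up 4.24% ± 0.76 and 23.3% ± 1.65 (SD, n = 3). At 50 and above there were 8, 16 and 11 short sites in all.

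**Figure D1:**
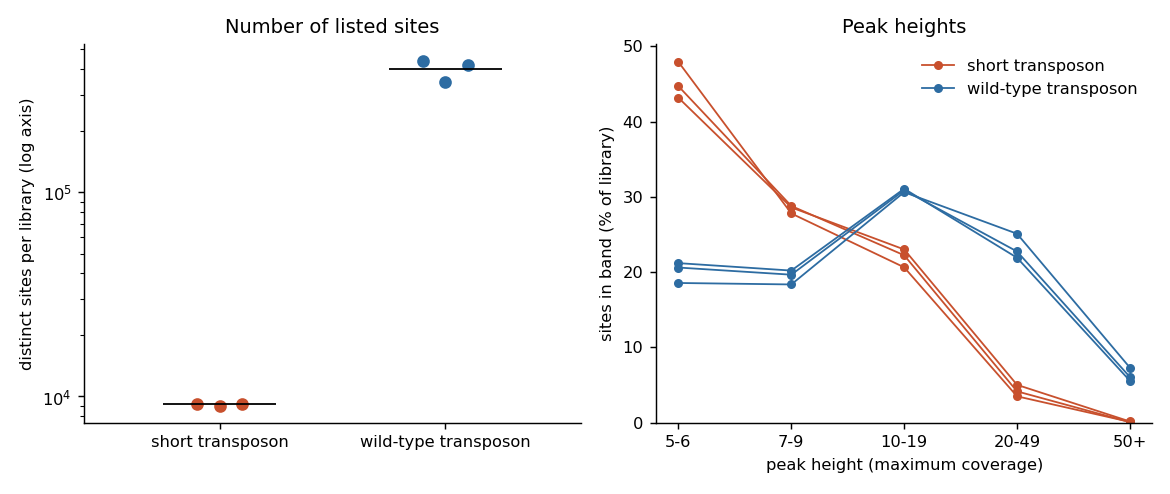
Left, distinct sites per library on a log axis, with 1 point per library and a line at the group mean; the short libraries lie near 9145 and the wild-type libraries near 401736. Right, the percentage of each library's sites in 5 bands of peak height, with 1 line per library; the short libraries peak in the band of 5 to 6 and the wild-type libraries in the band of 10 to 19.

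Comparisons of where sites lay are therefore given in 4 ways. The first sets all sites against all sites. The second uses the tallest wild-type sites of each library, as many as a short library holds on average (9145), which are those of height 72, 74 and 74 or more. The third weights wild-type sites to the height bands of the short libraries. The fourth keeps only positions listed in no other of the 6 libraries. Single measures were compared with a two-sided exact permutation test over the 20 splits of 6 libraries, which cannot give a p under 0.1, with Benjamini-Hochberg adjustment over 11 measures. Where the groups are said not to overlap, p was this smallest value of 0.1, and the adjusted p was 0.1 with all sites and between 0.1 and 0.11 in the matched comparisons.

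With all sites, the short transposon lay closer to gene ends and start sites and less often far from genes. Near a gene end, meaning within 5 kb of the start or the end of any annotated gene, were 42.1%, 43.1% and 42.0% of short sites and 32.3%, 32.2% and 32.4% of wild-type sites. The lowest short library is above the highest wild-type library by a margin larger than the spread in either group. Over 100 kb from the nearest protein-coding gene were 8.99%, 9.26% and 9.04% against 15.7%, 16.2% and 15.8%, again without overlap. Sites over 200 kb away made up 3.83% ± 0.03 against 9.40% ± 0.22 (SD, n = 3). Within 1 kb of the start of a protein-coding gene, where that start was known (79.2% of them, none on chromosome 8), were 6.56%, 6.66% and 6.68% of short sites and 3.20%, 3.47% and 3.27% of wild-type sites, also without overlap. The share inside an annotated gene went the other way, with 63.0%, 62.3% and 62.0% against 64.5%, 64.1% and 64.3%, a difference of −1.87 percentage points without overlap. In positions listed in no other library that difference was −0.47 points and the groups overlapped (exact permutation p = 0.3).

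Around start sites the difference was concentrated in the first kilobases. From 1 kb upstream to the start, 4.33% ± 0.13 of short sites and 1.99% ± 0.09 of wild-type sites were found per kb, a ratio of 2.18. The density was 2.70% ± 0.24 against 1.35% ± 0.02 from 2 to 1 kb upstream, a ratio of 2.00 (SD, n = 3). In the first kb of the gene it was 2.29% ± 0.10 against 1.32% ± 0.05, a ratio of 1.73. The ratio was 1.27 from 2 to 5 kb into the gene and 1.00 from 20 to 50 kb. Upstream it was 1.13 at 50 to 20 kb. The profile is therefore higher on both sides of the start, and the largest ratio lies just upstream of it.

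**Figure D2:**
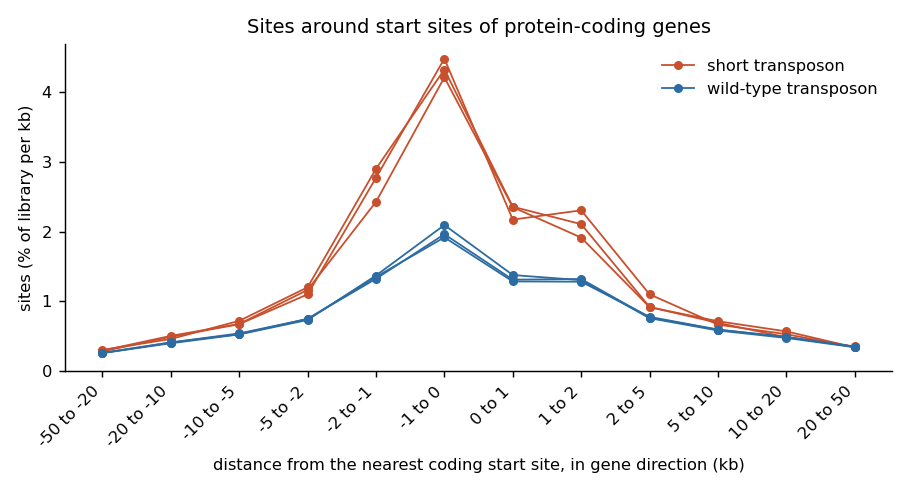
Percentage of each library's sites per kb of distance from the nearest protein-coding start site, in the direction of the gene, with 1 line per library. The short libraries reach 4.33% on average in the kb before the start and the wild-type libraries 1.99%, and the lines meet at 20 to 50 kb into genes.

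Within equal deposited heights up to 49, which are not matched for depth, the groups did not overlap in the shares near gene ends, near start sites and far from genes. Against the tallest wild-type sites several of the differences vanished or turned. At heights of 5 to 6 the share near a gene end was 41.0% ± 0.57 with the short and 29.7% ± 0.31 with the wild-type transposon, and at heights of 20 to 49 it was 47.5% ± 2.75 and 35.0% ± 0.49 (SD, n = 3). Weighted to the heights of the short libraries, the wild-type share was 30.5% ± 0.17, below each short library. It was 43.6%, 42.6% and 44.0% in the tallest wild-type sites, which overlaps the short libraries (difference −1.02 points, exact permutation p = 0.2). The share near start sites was 9.27% ± 0.47 in the tallest wild-type sites, above the 6.63% ± 0.06 of all short sites (SD, n = 3), and it was 2.66% ± 0.18 in height-matched ones. The share inside genes was 59.5% ± 0.39 in the tallest wild-type sites, below the short libraries, and so turned in direction. The share far from genes kept its direction, at 10.8%, 10.7% and 11.1% in the tallest wild-type sites against at most 9.26% in a short library. Height-matched wild-type sites had 17.3% ± 0.32 (SD, n = 3).

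In positions listed in no other library the short sites again lay nearer genes. Near a gene end were 36.3% ± 0.75 of them against 29.1% ± 0.38 of the wild-type ones, within 1 kb of a start 2.74% ± 0.09 against 1.67% ± 0.01, and over 100 kb from a coding gene 9.68% ± 0.08 against 17.4% ± 0.51 (SD, n = 3). The groups did not overlap in any of these. Both shares near genes were lower here than over all short sites, 42.4% ± 0.62 for gene ends and 6.63% ± 0.06 for starts.

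**Figure D3:**
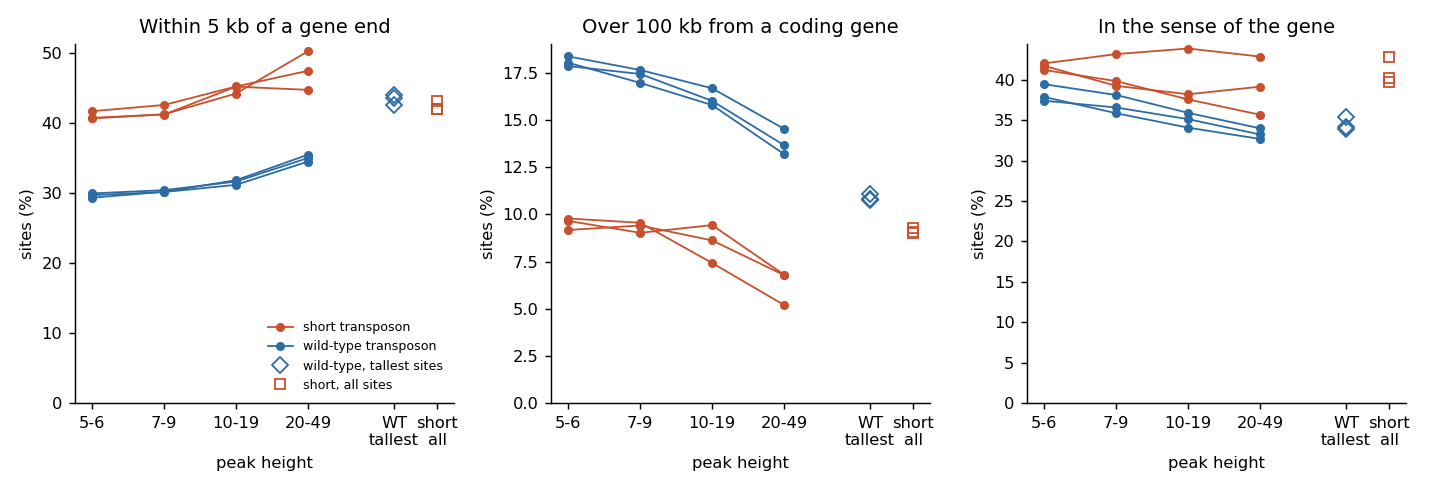
Percentage of sites within 5 kb of a gene end (left), over 100 kb from a protein-coding gene (middle) and in the sense of the gene among sites inside protein-coding genes (right), by peak height, with 1 line per library for heights up to 49. At the right of each panel, open diamonds are the tallest wild-type sites and open squares all short sites. The right panel leaves out positions with peaks on both strands or inside genes of both strands. In the left panel the diamonds, at 42.6% to 44.0%, reach the squares, and in the right panel they stay below them.

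The strand of peaks relative to genes differed too. The labels do not say how this strand relates to the orientation of the transposon. The strand of a peak was set against that of the gene for protein-coding genes whose strand was known (15812 of 19974). Positions with peaks on both strands, and positions inside genes of both strands, were left out. The former made up 1.02% ± 0.12 of all short and 5.54% ± 0.13 of all wild-type positions, but 23.8% ± 1.04 of the tallest wild-type sites (SD, n = 3). Of the sites kept, 42.8%, 39.8% and 40.3% of the short ones and 35.5%, 36.5% and 34.9% of the wild-type ones lay in the sense of the gene. Peaks against the sense of the gene were thus in the majority with both transposons, and the short libraries lay nearer to equality. In the tallest wild-type sites the share was 35.4%, 34.2% and 33.9%, and in genes over 100 kb it was 42.7% ± 1.07 with the short and 37.2% ± 0.71 with the wild-type transposon (SD, n = 3). In positions listed in no other library it was 39.8% ± 0.84 against 34.9% ± 0.78 (SD, n = 3). Across height bands up to 49 it went from 41.6% ± 0.42 to 39.2% ± 3.59 in the short and from 38.2% ± 1.07 to 33.3% ± 0.66 in the wild-type libraries (SD, n = 3). The groups did not overlap in any of these. At heights of 50 and above, with at most 16 short sites a library, they did (exact permutation p = 0.7).

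Peaks on both strands of the same target were listed less often with the short transposon, whose lists are also far shorter. They made up 1.11%, 0.89% and 1.07% of short positions and 5.64%, 5.39% and 5.57% of wild-type positions. At heights of 10 to 19 the shares were 1.97% ± 0.41 and 4.54% ± 0.40 (SD, n = 3). In the tallest wild-type sites the share was 23.8% ± 1.04. A position with peaks on both strands took the height of its taller peak, which by itself raises the share among tall sites. If wild-type peaks were thinned at random to the number in a short library, the expected share would be 0.12% ± 0.012 (SD, n = 3), below each short library, so that the direction of this difference depends on how the number of sites is treated. The names of the deposited files carry the tags re and le followed by 67 and 40 for the short and by 230 and 307 for the wild-type libraries, which the labels do not explain.

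Positions recurred less between short libraries than between wild-type libraries, which hold many more sites. A short site was listed in another short library in 7.93%, 8.16% and 8.48% of cases on average, and a wild-type site in another wild-type library in 19.9%, 22.9% and 20.6%. If wild-type libraries were thinned at random to 9145 sites, the expected share would be 0.482%, far below the 8.19% ± 0.28 (SD, n = 3) of the short libraries. The tallest wild-type sites shared 29.6% ± 1.42 (SD, n = 3). Of 25443 distinct short positions, 23707 were listed in 1 short library, 1480 in 2 and 256 in all 3.

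Short sites fell on positions that the wild-type lists also hold, and more so if they recurred. Of the short positions seen in 1, 2 and 3 short libraries, 52.4%, 86.0% and 89.1% were listed in at least 1 wild-type library. A short site was listed in a given wild-type library in 38.8%, 38.4% and 40.4% of cases, against 21.1% ± 1.56 for a site of another wild-type library (SD, n = 3). It was 62.9% ± 1.27 in the tallest wild-type sites, and in height-matched ones 15.0% ± 1.07 (SD, n = 3). The wild-type peaks at positions shared with a short library were tall, with medians of 33, 36 and 34 against 11, 12 and 11 for the other wild-type positions.

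The short sites near starts were mostly those shared with the wild-type lists. Short sites listed in all 3 wild-type libraries made up 23.5% ± 0.80 of a library, and 12.7% ± 0.49 of them lay within 1 kb of a coding start and 49.6% ± 1.19 near a gene end (SD, n = 3). Short sites listed in no wild-type library made up 43.0% ± 1.17, and 2.94% ± 0.14 of them lay near a start and 36.4% ± 0.65 near a gene end (SD, n = 3). The share over 100 kb from a coding gene was 9.48% ± 0.30 and 9.64% ± 0.04 in these classes and 8.14% ± 0.37 in short sites listed in 1 or 2 wild-type libraries (SD, n = 3).

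Among the positions with the greatest summed height over the short libraries, some were tall in both groups and others were absent from the wild-type lists. At chr22:37777117-37777120, 561 bases from an end of TRIOBP, an actin-bundling protein gene, the heights were 81, 72 and 83 with the short and 204, 122 and 69 with the wild-type transposon. At chr10:13302598-13302601, 2534 bases from an end of PHYH, a peroxisomal enzyme gene, they were 44, 61 and 38 against 230, 148 and 163. At chr17:73308735-73308738, inside CDC42EP4, they were 27, 51 and 31 against 154, 160 and 155. All 6 libraries listed these 3 positions. A position inside CRTAP, a collagen-modifying protein gene, at chr3:33115319-33115322, had heights of 41, 7 and 58 with the short transposon and was in no wild-type list. A position inside PCDH7 at chr4:30837396-30837399 was listed at 24, 13 and 20 and likewise in no wild-type library. These 5 positions were chosen after their values were seen.

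Short sites gathered in the same regions as wild-type sites, more densely than wild-type sites as a whole. The 1% of 100-kb windows with most wild-type sites, 303 windows ranked on libraries not under test, held 15.6%, 15.5% and 15.9% of short sites and 8.01%, 8.57% and 8.08% of wild-type sites. Within 5 kb of a short site lay 7.64, 7.67 and 7.83 sites of a wild-type library on average, and within 5 kb of a wild-type site 4.57, 5.22 and 4.68 sites of another wild-type library. The tallest wild-type sites were denser than both, with 24.4% ± 1.89 in those windows and 11.2 ± 0.25 neighbours (SD, n = 3). The few short sites of height 50 and above did not share this pattern, with 3.09% ± 3.13 in those windows against 18.9% ± 1.13 of wild-type sites of that height (SD, n = 3).

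Over chromosomes, the short transposon was shifted towards the gene-rich ones. Chromosome 19 held 2.77%, 2.94% and 2.83% of short sites and 1.33%, 1.33% and 1.34% of wild-type sites, a log2 difference of 1.10 ± 0.04 (SE). Chromosomes 22, 17 and 16 were higher by 0.65, 0.62 and 0.60 on the log2 scale. Chromosome 13, the poorest in coding genes, held 2.33%, 1.98% and 2.06% of short sites and 2.96%, 2.97% and 2.99% of wild-type sites, a log2 difference of −0.49 ± 0.04 (SE). Chromosomes X, 5 and 2 were lower, by −0.38, −0.35 and −0.34. Of 23 chromosomes limma called 21 (91.3%) at an adjusted p under 0.05, 10 higher (43.5%) and 11 lower (47.8%). Chromosomes 8 and 15 were not called (limma adjusted p = 0.427 and 0.129). Across the 23 chromosomes, which share the same 6 libraries, the log2 difference and the number of coding genes per Mb had a Pearson r of 0.84 and a Spearman coefficient of 0.81. Against the tallest wild-type sites these were 0.43 and 0.48, chromosome 19 was higher by 0.26, chromosome 17 was at −0.04 and chromosome X was higher by 0.33, and 11 chromosomes were called.

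**Figure D4:**
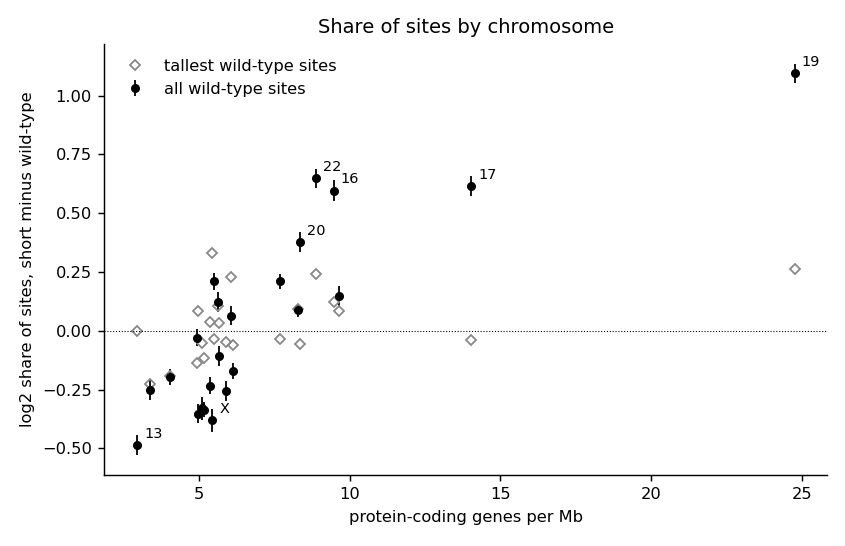
Log2 difference in the share of sites, short minus wild-type, against protein-coding genes per Mb, with 1 point per chromosome. Filled points with standard errors use all wild-type sites, with chromosome 19 at 1.10 and chromosome 13 at −0.49, and open diamonds use the tallest wild-type sites and lie nearer to 0.

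In bins of 5 Mb the bins with 60 or more coding genes were mostly higher and those with fewer than 30 mostly lower or not called. Of 513 bins limma called 241 (47%), 97 higher (18.9%) and 144 lower (28.1%), with a median log2 difference of −0.17 over all bins. With the median ratio as the scale the split was 129 higher and 100 lower, and without short replicate 3 limma called 149 bins. In bins of 1 Mb, where 518 held enough sites, it was 256 higher and 11 lower. At heights of 10 or more it was 84 higher and 11 lower of 184 tested. Bins were kept by their mean share over both groups, so that a bin high in the short libraries passed more easily. The splits at 1 Mb and at heights of 10 or more are therefore a description only. A filter on the wild-type share alone, chosen after the data were seen, kept 523 bins of 5 Mb, 92 higher and 128 lower. The 85 bins with 60 or more coding genes held 25.2% ± 0.65 of short and 15.5% ± 0.18 of wild-type sites (SD, n = 3), and 58 of them were higher and 1 lower. The 267 bins with 10 to 29 coding genes held 40.5% ± 0.93 of short and 50.4% ± 0.19 of wild-type sites (SD, n = 3), and 14 of them were higher and 109 lower. The 136 bins with 30 to 59 genes held 29% ± 0.58 against 27.0% ± 0.13, and the 25 bins with at most 9 genes 3.94% ± 0.10 against 4.59% ± 0.10 (SD, n = 3), with 23 higher and 15 lower in the former and 2 and 19 in the latter. Per bin, the log2 difference and the number of coding genes had a Pearson r of 0.63 over 513 bins, and 0.17 over 477 bins against the tallest wild-type sites. Among the bins with the largest rises were 3 of chromosome 19. Its bin from 15 to 20 Mb, with 138 coding genes, held 44.1 ± 4.25 short and 16.2 ± 0.39 wild-type sites per 10000 (SD, n = 3), a log2 difference of 1.46 ± 0.13 (SE), and it stayed higher than the tallest wild-type sites, by 0.56 (limma adjusted p = 0.0369). Those from 0 to 5 Mb and from 55 to 60 Mb did not pass against the tallest sites, at 0.16 and 0.35 (limma adjusted p = 0.653 and 0.522). The bin from 30 to 35 Mb of chromosome 4, with PCDH7 as 1 of its 2 coding genes, was also among them, with 121 ± 8.32 against 48.9 ± 2.80 per 10000 (SD, n = 3), and it turned to −0.61 against the tallest sites (limma adjusted p = 2.68e-07). The 5 bins with the largest falls held 2 to 17 coding genes. The bin from 60 to 65 Mb of chromosome 13, with 4 coding genes, held 1, 0 and 2 short sites and 427, 426 and 460 wild-type sites, a log2 difference of −3.00 ± 0.41 (SE). The bin from 10 to 15 Mb of chromosome 9, with 7 coding genes, held 1, 2 and 1 against 413, 354 and 415, a log2 difference of −2.33 ± 0.21 (SE). The bin from 165 to 170 Mb of chromosome 3, with 17 coding genes, held 7, 9 and 0 against 801, 671 and 765, a log2 difference of −2.37 ± 0.59 (SE). The 5 bins with the largest falls had too few sites for the fit against the tallest wild-type sites. Whether their falls hold there was not tested. In that fit 37 of 481 bins were called, 16 higher and 21 lower.

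Gene by gene, the genes with enough sites to be tested were mostly higher in share with the short transposon. Genes with at least 5 sites expected per short library were tested, 31 protein-coding genes and 14 lncRNA genes, and a site in overlapping genes was counted for each. This filter used the mean share over both groups, so that a gene high in the short libraries passed more easily. Of these 45 genes limma called 24 (53.3%), 22 higher (48.9%) and 2 lower (4.44%), with a median log2 difference of 0.98 over all 45. With the median ratio over these genes as the scale, 5 were higher and 4 lower. A filter on the wild-type share alone, chosen after the data were seen, left 34 genes, of which 19 were higher and 6 lower. Of the 24 genes called with the first filter, only 13 were also called with this one. The number of higher genes among the 45 therefore rests in part on the filter. Without wild-type replicate 3 the count of called genes was 14, without wild-type replicate 2 it was 36, and without short replicate 1, 2 or 3 it was 37, 40 and 40.

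PCDH7, a protocadherin gene at chr4:30720369-31146800, held most short sites of any protein-coding gene. It had 112, 109 and 95 short sites and 1452, 1286 and 1379 wild-type sites. Per 10000 sites of a library this was 115 ± 10.5 against 34.3 ± 2.37 (SD, n = 3), a log2 difference of 1.75 ± 0.08 (SE; limma adjusted p = 7.47e-09). In the tallest wild-type sites it was 175 ± 25.1 (SD, n = 3), above the short libraries by 0.59 on the log2 scale, a turn of direction that limma also called (adjusted p = 2.81e-05). The 100-kb window from 30.8 Mb, in its gene body, held 42.6 ± 5.76 short and 9.11 ± 0.85 wild-type sites per 10000 (SD, n = 3), a ratio of 4.68. The window from 31.0 Mb, in the same gene, held 15.3 ± 4.97 and 8.46 ± 0.43 (SD, n = 3), a ratio of 1.81.

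Other genes with many short sites were also higher in share when all sites were used. VTI1A, a vesicle SNARE gene next to TCF7L2 on chromosome 10, had 31, 36 and 36 short sites and 571, 463 and 575 wild-type sites, a log2 difference of 1.5 ± 0.12 (SE; limma adjusted p = 2.22e-06). PHLDB2, which encodes a protein of the cell cortex, had 29, 33 and 33 short sites against 453, 373 and 408, a log2 difference of 1.77 ± 0.19 (SE; limma adjusted p = 2.62e-05). PPP3CA, the catalytic subunit gene of calcineurin, rose by 1.15 ± 0.31 (SE; limma adjusted p = 0.0154). NSMCE2, a SUMO ligase gene, rose by 1.26 ± 0.31 (SE; limma adjusted p = 0.0102). DLGAP1, a postsynaptic scaffold gene, rose by 1.65 ± 0.41 (SE; limma adjusted p = 0.0102). MTHFD1L, VMP1, SYTL3 and ARHGAP29, for a mitochondrial folate enzyme, an autophagy membrane protein, a synaptotagmin-like protein and a GTPase-activating protein, had log2 differences of 1.62, 1.66, 1.30 and 1.29 that limma called (adjusted p = 0.0121, 0.0303, 0.0212 and 0.0303). By the wild-type share alone these 4 genes would have had fewer than 5 expected sites, and they were tested only because the short share was higher, so that their rises are a description. VMP1, SYTL3 and ARHGAP29 were not called without wild-type replicate 3, and SYTL3 and ARHGAP29 were not called with 2 expected sites as the filter (limma adjusted p = 0.148 and 0.102). With the median ratio as the scale, PPP3CA, NSMCE2, DLGAP1, MTHFD1L, VMP1, SYTL3 and ARHGAP29 were not called, at log2 differences of 0.23 to 0.69 (limma adjusted p = 0.125 to 0.663). Against the tallest wild-type sites ARHGAP29 was at a log2 difference of 0.42. The log2 differences of the other 8 genes described in this paragraph so far turned in direction, to between −0.98 and −0.03. The turn was called in NSMCE2, DLGAP1, VMP1 and SYTL3 (limma adjusted p = 9.76e-05, 0.00502, 0.0270 and 0.00664). In VTI1A, PHLDB2, PPP3CA and MTHFD1L it was not called (limma adjusted p = 0.0665, 0.366, 0.0703 and 0.927). PALLD, MPP7 and PDE4B, also among the 10 protein-coding genes with most short sites, had log2 differences of 0.83, 0.98 and 0.94 that did not pass the test (limma adjusted p = 0.0575, 0.109 and 0.0833). With the filter on the wild-type share they were called (limma adjusted p = 0.00686, 0.0150 and 0.0344).

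LINC-PINT, a long non-coding RNA gene named here after its values were seen, had the lowest adjusted p of the 45 genes. It had 38, 41 and 40 short sites and 403, 337 and 391 wild-type sites, or 43.4 ± 2.05 against 9.41 ± 0.27 per 10000 (SD, n = 3), a log2 difference of 2.22 ± 0.07 (SE; limma adjusted p = 7.65e-10). In the tallest wild-type sites it was at 56.1 ± 3.82 per 10000 (SD, n = 3), so that the direction turned (log2 difference −0.37, limma adjusted p = 0.0424).

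LRP1B and CDKAL1 fell. LRP1B, a very long lipoprotein receptor gene at a common fragile site, had 3, 0 and 5 short sites against 338, 288 and 349, a log2 difference of −1.80 ± 0.58 (SE; limma adjusted p = 0.0303). CDKAL1, which encodes a tRNA-modifying enzyme, had 6, 3 and 1 against 379, 299 and 340, a log2 difference of −1.25 ± 0.44 (SE; limma adjusted p = 0.0371). Among the tallest wild-type sites LRP1B had 4.01 ± 1.26 sites per 10000, next to 2.90 ± 2.73 in the short libraries, and CDKAL1 6.72 ± 0.87 next to 3.64 ± 2.73 (SD, n = 3). Without wild-type replicate 3 neither was called, and CDKAL1 was not called without wild-type replicate 1 or short replicate 2 either. Against the tallest wild-type sites 36 of 71 genes were called, 1 higher and 35 lower. That fit was filtered on the mean share over short and tallest wild-type sites. A gene high in the tallest wild-type sites therefore passed more easily, and the split is a description only.

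**Figure D5:**
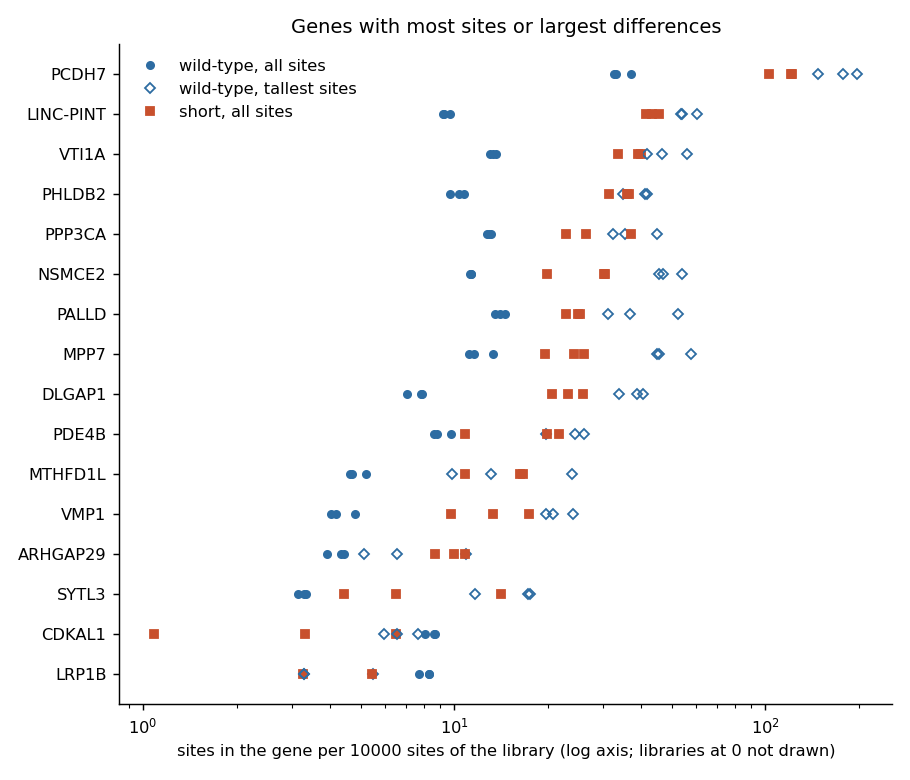
Sites in each gene per 10000 sites of the library, on a log axis, with 1 mark per library; libraries at 0 are not drawn. For PCDH7 the short libraries average 115, between 34.3 for all wild-type sites and 175 for the tallest wild-type sites, and for LRP1B and CDKAL1 the drawn short libraries lie left of all wild-type sites.

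Gene groups relevant to a colon carcinoma line and to long genes were counted as sites per 10000, beside 4905 ± 90.5 with the short and 5055 ± 26.5 with the wild-type transposon for all protein-coding genes (SD, n = 3). The 20 common fragile site genes held 22.8, 15.5 and 28.2 short against 56.1, 57.1 and 55.9 wild-type sites, with no overlap. The member of this list that passed the test was LRP1B, described above. The 30 long neuronal genes held 14.1, 7.75 and 15.2 against 41.7, 43.1 and 44.6, with no overlap and no member tested. TENM3, a teneurin gene, had 1, 1 and 2 short sites and 236, 176 and 241 wild-type sites. In the tallest wild-type sites both lists were also low, at 20.2 ± 4.71 and 9.0 ± 0.43 (SD, n = 3).

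The 25 genes of growth factor and MAPK response held 25, 22.2 and 20.6 short and 16.3, 15.5 and 15.8 wild-type sites per 10000, with no overlap, and 24.6 ± 2.58 in the tallest wild-type sites (SD, n = 3). MET, the hepatocyte growth factor receptor gene and their tested member, had 12, 5 and 3 short sites and a log2 difference of 0.65 that did not pass (limma adjusted p = 0.163). Among the members with most sites, EREG, SPRED2 and ETV5 were also higher on average. EGFR was lower without overlap, at 1.46 ± 0.62 against 2.55 ± 0.14 per 10000, and IGF1R was at 2.18 ± 1.07 against 2.21 ± 0.43 (SD, n = 3). The 25 Wnt pathway genes held 22.6 ± 6.85 and 21.5 ± 0.79 (SD, n = 3), with overlap. Their tested member TCF7L2, the main TCF factor gene of the colon, had 5, 9 and 7 short sites and 159, 139 and 156 wild-type sites, a log2 difference of 1.09 ± 0.38 (SE; limma adjusted p = 0.0371). It too was tested only because the short share was higher. It was not called with the median ratio as the scale (log2 difference 0.12, limma adjusted p = 0.86), with 2 expected sites as the filter (limma adjusted p = 0.241), without wild-type replicate 1 or 3, or against the tallest wild-type sites (log2 difference 0.42). The 23 gut epithelial genes held 9.12 ± 2.34 and 7.97 ± 0.38, and the 16 genes of BET proteins and transcription elongation 6.55 ± 1.85 and 6.56 ± 0.61 (SD, n = 3), both with overlap. The 392 olfactory receptor genes held 5.44, 2.22 and 1.09 against 5.39, 5.77 and 6.25, the 84 cytosolic ribosomal protein genes 8.0 ± 2.2 against 6.56 ± 0.26, and the 250 zinc finger genes of chromosome 19 6.19 ± 1.62 against 4.65 ± 0.29 (SD, n = 3), all with overlap. No member of these last 5 lists had enough sites to be tested.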

How the data were processed

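Peak lists of insertions in HCT116 cells were used for 3 libraries with the short and 3 with the wild-type transposon, both with wild-type piggyBac. The authors deposited per peak a sum of coverage, a maximum coverage (the height, a signal never below 5 here), a width and a value repeated in every line of a file, taken as the file total, which no header explains. Coverage, widths and totals are used as deposited, with no normalization by the authors stated. The submitters' processing notes name cutadapt 3.4, HISAT2 2.2.1.0 and the builds hg38 and GRCh38.p5. The peak caller and the handling of duplicates are not given in the sources used here. Heights are from PCR reads without molecular identifiers, so intervals cover counting error only.

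A site was the peak start on the plus strand, or the end minus 3 bases on the minus strand, counted once per library on chromosomes 1 to 22 and X. Genes came from RefSeq GRCh38.p14, and strands and starts from its promoter windows, which covered 79.2% of protein-coding genes. Sites per gene, 5-Mb bin and chromosome were tested with voom and limma 3.58.1 in R 4.3.3, scaled to all sites of a library, with 5 sites expected per short library as a filter, Benjamini-Hochberg adjustment and a threshold of 0.05, after a check on simulated data. Other measures used Python 3.11.15, numpy 2.4.6, pandas 2.3.3 and scipy 1.17.1. Genes were named by a rule: the 10 protein-coding genes with most short sites, the 10 called genes with the largest rise and the 10 with the largest fall whose libraries did not overlap, and list members with most sites. The libraries, measures, lists and rule were chosen with earlier results of these data known, and some of the measures repeat differences already seen in them. Alternatives were other distances, window sizes, filters, scalings and height minimums, matched wild-type sites, limma-trend, a replicate block and each library left out. Recurrence in wild-type lists, positions listed in no other library, random thinning for the share on both strands and the filter on the wild-type share were chosen after seeing the data.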

Additional observations from a re-analysis of the deposited data

How the results depend on the processing

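Per 1000000 of the file total the log2 difference in number of sites was 0.12 in place of −5.45. Against the tallest wild-type sites the differences turned to 2.92 points for the share inside genes, −1.02 for gene ends, −2.64 for start sites, −8.67 for the densest windows, −23.7 for recurrence in wild-type lists, and −3.52 neighbours within 5 kb. Random thinning turned replicate sharing to 7.71 points and the share on both strands to 0.908 points. The shares far from genes and in the sense of the gene kept their direction in every alternative run for them. Leaving out 1 library at a time turned no measure, and the ranges were 9.69 to 10.2 points for gene ends, 3.26 to 3.39 for start sites, −6.94 to −6.65 for sites far from genes and 4.39 to 5.88 for sense. The 24 genes called became 9 with the median scale, 9 of 9 tested at height 10 or more, 37 with the replicate block and 14 to 40 without 1 library. At height 10 or more the filter on the mean share again let genes high in the short libraries pass more easily. The 9 of 9 are therefore a description only. Leaving out wild-type replicate 3 gave 14, and leaving out short replicate 1, 2 or 3 gave 37, 40 and 40. The 241 bins called became 95 at height 10 or more, 37 against the tallest sites and 149 to 250 without 1 library, with 149 without short replicate 3. The 21 chromosomes called became 11 against the tallest sites. Against the tallest wild-type sites the log2 differences turned in PCDH7 (−0.59), LINC-PINT (−0.37), VTI1A (−0.34), PHLDB2 (−0.18), PPP3CA (−0.39), NSMCE2 (−0.87), DLGAP1 (−0.68), MTHFD1L (−0.025), VMP1 (−0.68), SYTL3 (−0.98), PALLD (−0.67), MPP7 (−1.07) and PDE4B (−0.46), and with the median scale in PALLD (−0.13), PDE4B (−0.024) and MET (−0.31). Of the turns against the tallest sites, those of VTI1A, PHLDB2, PPP3CA, MTHFD1L and PDE4B were not called (limma adjusted p = 0.0665, 0.366, 0.0703, 0.927 and 0.104). LRP1B and CDKAL1 had too few sites for the fit against the tallest sites, and both lost their call with limma-trend and with 2 sites expected as the filter. Wild-type and short libraries of the same replicate number did not all deviate together, with correlations of their deviations of 0.007, 0.052 and 0.034 over bins, 0.114, 0.182 and −0.021 over genes and −0.073, 0.15 and −0.063 over chromosomes, so that the replicate block rests on a shared number only. The causes of these changes were not tested. The filters left 45 of all genes, since a short library holds about 9145 sites, and with 2 sites expected 297 genes were tested and 24 called.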
